A study of Rattus norvegicus with 6 samples.

Results

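The renin-angiotensin genes described here are Agt, Ace, Agtr1a, Mme, Enpep, Anpep and Hsd11b2, 7 of the 15645 rat genes that could be named on the array. They were chosen as the precursor, the converting enzyme, a receptor, 3 brush border peptidases and the enzyme that guards the mineralocorticoid receptor, and found through the transcript accession of each probe. All 11 of their probes lay well above background on all 6 arrays and passed the filter on dim probes. The arrays compared renal cortex of male Sprague-Dawley (Crl:CD(SD)) rats, bought at 5 weeks of age, that were given corn oil (vehicle, 3 rats) or TBBC, the 4,4' form of thiobis(6-tert-butyl-m-cresol), at 300 mg/kg/day (3 rats). Both treatments lasted 4 weeks. TBBC is a phenolic antioxidant in which a sulfur atom bridges a pair of alkylated cresol rings. With 1 dose and 1 time, no dose or time course can be read.

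In the renin-angiotensin system the protease renin cuts angiotensinogen, the product of Agt, to angiotensin I, and angiotensin-converting enzyme (Ace) trims that to angiotensin II. Angiotensin II acts mainly through the type 1 receptor, of which Agtr1a encodes the main renal form in the rat, to constrict vessels, to promote sodium reabsorption and to release aldosterone. Peptidases on the brush border of the proximal tubule, among them neprilysin (Mme), aminopeptidase A (Enpep) and aminopeptidase N (Anpep), cut angiotensins and other peptides further. Hsd11b2 inactivates corticosterone in the distal nephron and collecting duct, so that aldosterone can reach the mineralocorticoid receptor there.

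The 75th percentile of the processed signal, by which each array was scaled, ran from 861 to 1038, and 67.1% to 70.9% of probes lay well above background. Levels below are log2 of the signal over that percentile and can be compared between arrays for 1 probe, not between probes. The vehicle arrays and TBBC 1 shared a slide, while TBBC 2 and TBBC 3 were on another. Markers of the proximal tubule were present, with Miox at 9.22 ± 0.21 and Slc13a3 at 8.69 ± 0.04 in vehicle cortex (SD, n = 3). Of 5 adrenal genes 1 passed the filter on dim probes, Cyp21a1, at -1.67 ± 0.35 in vehicle and -2.00 ± 0.15 in TBBC rats (SD, n = 3). The adrenal enzymes Cyp11b1 and Cyp11b2 were not well above background in all rats of either group. The injury marker Spp1 rose from 2.55 ± 0.34 in vehicle to 7.70 ± 0.41 in TBBC rats (SD, n = 3; limma adjusted p = 0.00434). The summed level of 6 injured tubule markers ran from 27.97 to 29.08 in vehicle rats and was 179, 374 and 335 in TBBC 1, 2 and 3. Spp1 led this sum in TBBC rats. The median of the 6, each relative to its vehicle mean, was 1.21, 3.24 and 3.09 there. Of the 6, 4 were higher without overlap (13.1% of all transcripts), while Clu and Vcam1 overlapped. Clu was at 3.94 ± 0.16 in vehicle and 5.51 ± 1.45 in TBBC rats (SD, n = 3; limma adjusted p = 0.268). TBBC 3 had the highest summed level of 7 leukocyte markers, 140 against 60.1 to 85.5 on the other arrays. That sum was led by Lyz2, at 7.06 in TBBC 3. The median of the 7, each relative to its vehicle mean, was 0.88 in TBBC 3 and -0.36 to 0.16 on the other arrays. In pieces of cortex, fewer cells of a type and less RNA per cell cannot be told apart.

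None of the 7 genes passed an adjusted p of 0.05 (limma), a threshold that 0.531% of 32956 transcripts passed (175, 0.255% of transcripts higher and 0.276% lower in TBBC rats, and from 6 to 274 with 1 array left out). Ace, Agtr1a and Mme, 3 of the 7, had an unadjusted p under 0.05, as did 20.0% of all transcripts. The groups did not overlap for 2 of the 7, with Ace higher and Agtr1a lower in every TBBC rat, against 28.3% of all transcripts. Over 7 genes such shares move in large steps, and neither count is read as particular to them. The mean was higher in TBBC rats for 2 genes and lower for 5, beside 15337 higher and 17619 lower of the 32956 transcripts. The median log2 fold change of the 7 was -0.60, beside -0.02 over all transcripts.

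**Figure D1:**
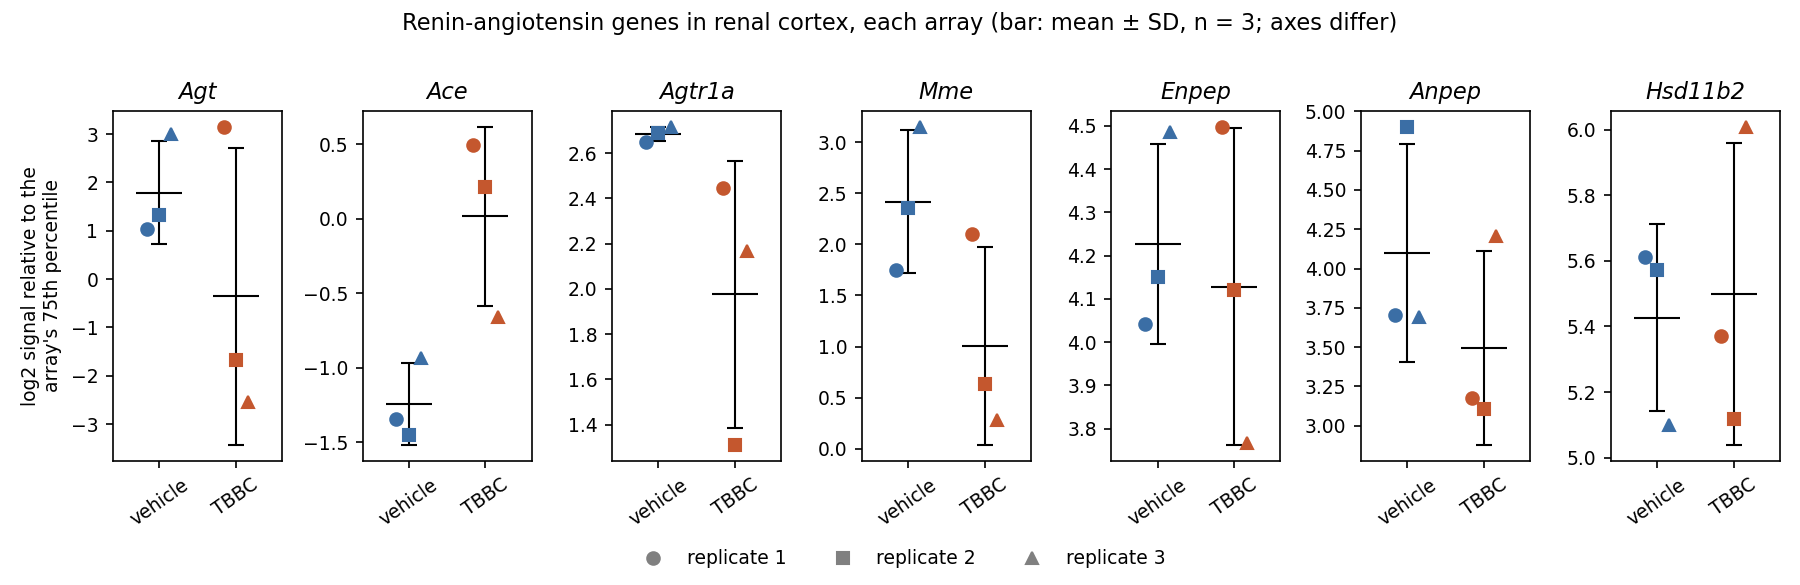
Level of each gene on each array, as log2 signal relative to the array's 75th percentile, with vehicle rats in blue, TBBC rats in orange, a symbol per replicate and bars for the mean ± SD (n = 3). Each panel has its own axis. The groups are separate for Ace and Agtr1a and overlap for the other 5 genes, and Agt spans the widest range, from -2.55 to 3.15.

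Agt, whose product is the only known source of angiotensin peptides, varied more between arrays of a group than almost any other transcript. It stood at 1.04, 1.32 and 3.01 in vehicle 1, 2 and 3 and at 3.15, -1.67 and -2.55 in TBBC 1, 2 and 3. TBBC 1 was the highest of all 6 rats, while TBBC 2 and TBBC 3 lay below every vehicle rat, so the groups overlapped. The log2 fold change was -2.15 ± 1.5 (SE; 95% interval -5.77 to 1.48; limma adjusted p = 0.475). The within-group standard deviation of Agt, pooled over the groups, exceeded that of 99.9% of transcripts tested. It was 1.06 in vehicle rats and 3.07 in TBBC rats, whose arrays were not all on the same slide. Of all transcripts, 74.3% had the larger standard deviation in TBBC rats. Its second probe gave -0.17, 0.17 and 1.94 in vehicle rats and 1.91, -2.73 and -3.52 in TBBC rats, again high in vehicle 3 and TBBC 1 and lowest in TBBC 2 and TBBC 3.

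The difference in Agt depended on which TBBC arrays were used. On the slide that holds both groups, TBBC 1 lay 1.36 above the vehicle mean, the opposite direction to the full comparison, and without TBBC 1 the log2 fold change was -3.90 (limma adjusted p = 0.0840). Without TBBC 3 it was -1.05. As TBBC 2 and TBBC 3 share a slide with no vehicle rat, their low Agt and their slide cannot be told apart. The liver is the main source of plasma angiotensinogen, so the liver and plasma protein list was read beside Agt. Albumin (Alb) stood at 2.39, -3.46 and -0.13 in vehicle 1, 2 and 3 and at -3.61, -2.97 and -6.44 in TBBC 1, 2 and 3. Its highest value was in vehicle 1, where Agt was lowest among vehicle rats. Its lowest value was in TBBC 3, where Agt was lowest too. The median log2 fold change of the 5 liver and plasma protein genes was -0.95. Of these, 4 had a lower mean in TBBC rats, as did 17619 of 32956 transcripts. The exception was fibrinogen alpha (Fga), at 0.69 ± 0.54 in vehicle and 4.35 ± 1.85 in TBBC rats (SD, n = 3). The list's summed level, 11.02, 1.98 and 2.39 in vehicle 1, 2 and 3 and 7.96 to 87.8 in TBBC rats, was led in TBBC rats by Fga, which reached 6.45 in TBBC 2. The part of such RNA in Agt was not tested.

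**Figure D2:**
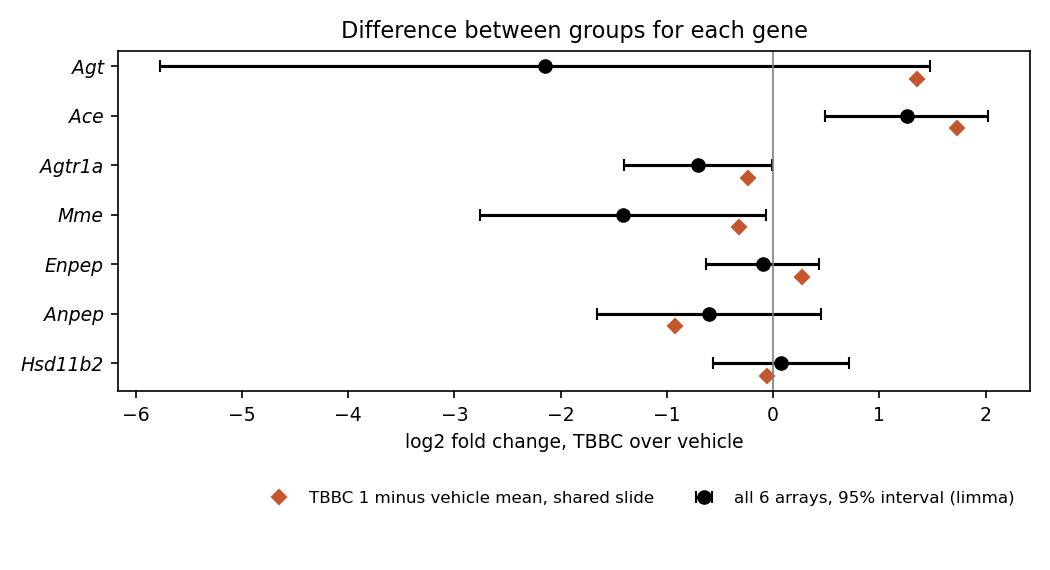
Log2 fold change of TBBC over vehicle for each gene, with black points and bars for the limma estimate and its 95% interval over 6 arrays, and orange diamonds for TBBC 1 minus the vehicle mean on the shared slide. The intervals of Ace, Agtr1a and Mme leave out 0 before adjustment, and the diamonds of Agt, Enpep and Hsd11b2 lie on the other side of 0 from the estimate.

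Ace, a peptidyl dipeptidase anchored on endothelium and on the proximal brush border, was higher in every TBBC rat. The brightest of its 3 probes stood at -1.34, -1.45 and -0.93 in vehicle 1, 2 and 3 and at 0.49, 0.21 and -0.66 in TBBC 1, 2 and 3. All TBBC values lay above all vehicle values, with TBBC 3 nearest to the vehicle range. The mean was 2.39-fold higher, a log2 fold change of 1.26 ± 0.32 (SE; 95% interval 0.49 to 2.03), without passing (limma adjusted p = 0.119). Groups that do not overlap, with TBBC higher, were seen for 13.1% of all transcripts.

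The other probes of Ace showed the same separation. The second stood at -3.30, -3.56 and -3.00 in vehicle rats and at -1.49, -1.39 and -2.40 in TBBC rats, and the third at -3.73, -3.82 and -3.08 against -1.73, -1.84 and -2.84. Their log2 fold changes were 1.52 and 1.41, and with every probe tested on its own the adjusted p-values of the 3 probes ran from 0.0807 to 0.118 (limma). On the shared slide TBBC 1 lay 1.73, 1.79 and 1.81 above the vehicle mean on the 3 probes. Most markers of the cells that carry Ace had lower means in TBBC rats, as did 17619 of 32956 transcripts. The part of these markers in Ace was not tested. Of 9 endothelial markers measured, 7 were lower by mean, with summed levels of 81.8 to 85.2 in vehicle and 69.2 to 80.8 in TBBC rats. Of 18 proximal tubule markers 17 had lower means, with sums of 3057 to 3303 and 2405 to 2907. The endothelial marker Vwf had no named probe.

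**Figure D3:**
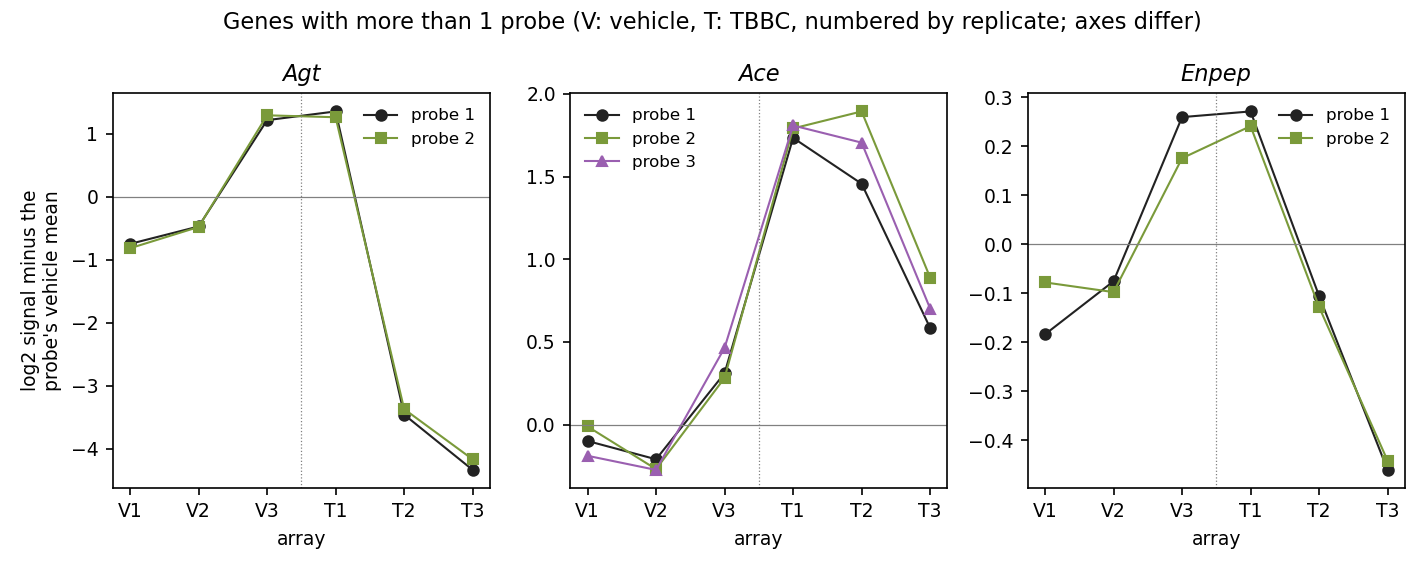
Probes of Agt, Ace and Enpep on each array, as log2 signal minus the probe's own vehicle mean; V and T stand for vehicle and TBBC with the replicate number, lines only join the points of a probe, and each panel has its own axis. The probes of a gene move together, with those of Ace above the vehicle values on T1, T2 and T3 and those of Agt high on V3 and T1 and low on T2 and T3.

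Agtr1a, the receptor for angiotensin II, was lower in every TBBC rat and nearly constant among vehicle rats. Its single probe stood at 2.65, 2.69 and 2.71 in vehicle 1, 2 and 3 and at 2.45, 1.31 and 2.17 in TBBC 1, 2 and 3. The groups did not overlap, as for 15.2% of all transcripts with TBBC lower, and TBBC 2 was far below the other TBBC rats. The log2 fold change was -0.71 ± 0.29 (SE; 95% interval -1.40 to -0.01; limma adjusted p = 0.244), a mean 1.63-fold lower. It was -0.38 without TBBC 2 and -0.24 for TBBC 1 on the shared slide. The paralog Agtr1b was at -0.47 ± 0.35 in vehicle and -0.92 ± 0.65 in TBBC rats (SD, n = 3; limma adjusted p = 0.529), with groups that overlapped. The receptors are near copies, and signal shared between their probes was not tested.

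Ace and Agtr1a are the genes whose groups did not overlap, so the sequence before their start is shown here (250 bases, 5′ to 3′ on the gene's strand, from RefSeq on build GRCr8). Of the 7 genes 5 had an entry in the promoter table used, and none was shown for Agt or Hsd11b2. Ace lies on the plus strand (chr10:91409879-91410128) and Agtr1a on the minus strand (chr17:34435433-34435682). Capitals mark matches on either strand. The motifs were the TATA box, spelled TATAAA, the GC box, spelled GGGCGG, and the core of the antioxidant response element, spelled TGACNNNGC.
Ace: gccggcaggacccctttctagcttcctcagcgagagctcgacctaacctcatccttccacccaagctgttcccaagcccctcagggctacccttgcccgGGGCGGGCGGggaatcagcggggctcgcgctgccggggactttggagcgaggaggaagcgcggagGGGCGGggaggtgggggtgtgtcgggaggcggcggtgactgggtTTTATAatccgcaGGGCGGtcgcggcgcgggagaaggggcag
Agtr1a: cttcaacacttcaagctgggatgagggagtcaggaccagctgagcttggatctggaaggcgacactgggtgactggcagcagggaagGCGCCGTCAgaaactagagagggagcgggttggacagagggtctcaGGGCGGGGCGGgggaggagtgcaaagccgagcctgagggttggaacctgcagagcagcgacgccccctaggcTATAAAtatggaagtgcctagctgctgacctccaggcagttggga
Both have a TATAAA match close to the start, a motif that 12.9% of 33469 promoters of this length hold on either strand. In Ace the match begins 42 bases before the start and lies on the opposite strand (TTTATA). In Agtr1a it begins 45 bases before the start, on the gene's strand. Ace has 4 GC boxes, of which the first 2 overlap, and Agtr1a 2 that overlap, while 30.5% of promoters hold at least 1. Agtr1a holds 1 match to the antioxidant response element core and Ace none in this window, against 10.1% of promoters. The windows are 69.2% and 60.8% G and C, and the median over all promoters is 51.2%. Among the others, Mme has 2 GC boxes, Anpep has 1 match to GTTAAT, a stretch of HNF1 sites that 6.45% of promoters hold, and Enpep has no match to these motifs nor to TGTTCT, a stretch of steroid receptor sites found in 17.5% of promoters.

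The 3 brush border peptidases each had a lower mean in TBBC rats, by very different amounts, and in none were the groups separate. Mme, which encodes neprilysin, stood at 1.75, 2.35 and 3.15 in vehicle 1, 2 and 3 and at 2.10, 0.63 and 0.28 in TBBC 1, 2 and 3. TBBC 2 and TBBC 3 lay below every vehicle rat and TBBC 1 within their range. The log2 fold change was -1.41 ± 0.56 (SE; 95% interval -2.76 to -0.07; limma adjusted p = 0.232), and -0.32 for TBBC 1 on the shared slide. Its within-group standard deviation was above that of 97.2% of transcripts.

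Enpep, which removes acidic residues such as the first one of angiotensin II, stood at 4.04, 4.15 and 4.49 in vehicle rats and at 4.50, 4.12 and 3.77 in TBBC rats. The groups overlapped, with TBBC 1 the highest and TBBC 3 the lowest rat. The log2 fold change was -0.10 ± 0.22 (SE; 95% interval -0.63 to 0.43; limma adjusted p = 0.843), so the interval holds changes in either direction. It turned positive without vehicle 3 (0.031), without TBBC 3 (0.083) and on the shared slide (0.27). The second probe gave 0.29 ± 0.15 and 0.18 ± 0.34 (SD, n = 3).

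Anpep, a broad aminopeptidase that continues the breakdown of angiotensins, stood at 3.71, 4.90 and 3.69 in vehicle rats and at 3.18, 3.11 and 4.2 in TBBC rats. Vehicle 2 was the highest rat, and TBBC 3 lay above the other vehicle rats. The log2 fold change was -0.60 ± 0.44 (SE; 95% interval -1.66 to 0.45; limma adjusted p = 0.489), with -0.20 without vehicle 2 and -0.96 without TBBC 3. The proximal tubule markers given above, most of which had lower means in TBBC rats, had a median log2 fold change of -0.25 and a range from -1.37 to 0.05. Of these 18 markers, 7 were lower without overlap, beside 15.2% of all transcripts. The part of these markers in the values of the peptidases was not tested.

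Hsd11b2 stood at 5.61, 5.57 and 5.10 in vehicle rats and at 5.37, 5.12 and 6.01 in TBBC rats. The ranges overlapped, and TBBC 3 was the highest rat. The log2 fold change was 0.07 ± 0.27 (SE; 95% interval -0.57 to 0.71; limma adjusted p = 0.912). It was -0.093 without vehicle 3, -0.18 without TBBC 3 and -0.056 on the shared slide. Principal cell markers, of the cells that express Hsd11b2, had sums of 150 to 195 in vehicle and 116 to 147 in TBBC rats, with 4 of 7 means higher and 3 lower. The sums were led by Aqp2, at 6.81 ± 0.25 in vehicle and 6.42 ± 0.23 in TBBC rats (SD, n = 3). The median of the 7, each relative to its vehicle mean, was 0.027, 0.085 and 0.026 in TBBC 1, 2 and 3. In vehicle rats that median ran from -0.091 to 0.093.

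Several of these genes ordered the rats in the same way. Agt, Mme and Enpep were lowest in vehicle 1 and highest in vehicle 3 among vehicle rats, and highest in TBBC 1 and lowest in TBBC 3 among TBBC rats. Ace had the same highest and lowest TBBC rats and the same highest vehicle rat. Anpep and Hsd11b2 did not follow this order, and both were highest in TBBC 3 among TBBC rats. The summed injured tubule markers were lowest in TBBC 1 among TBBC rats, where Agt and Mme were highest, and those of the thick ascending limb stood at 343, 139 and 207 in TBBC 1, 2 and 3 against 387 to 443 in vehicle rats. Their part in the order of the rats was not tested.

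Profiles most like those of each gene were sought over the 6 arrays, as the smallest root mean square difference after each gene was centred on its vehicle mean. For Agt they were Slc22a7 and Slco1a5, both organic anion transporters, and Cyp2c24, a cytochrome P450, with differences of 0.69, 0.90 and 0.96 on the log2 scale. Relative to its vehicle mean, Slc22a7 stood at -1.3, -0.053 and 1.35 in vehicle rats and at 0.074, -4.04 and -3.74 in TBBC rats, so it shared the high vehicle 3 and the low TBBC 2 and TBBC 3 of Agt. For Mme they were Aadat, an aminotransferase of the kynurenine and lysine pathways, the cyclophilin Ppic and Prss35, at 0.18, 0.22 and 0.23. For Ace they were Srsf12, the organic anion transporter Slc17a3 and Gmppb, which makes GDP-mannose, at 0.096, 0.15 and 0.16. Agtr1a was closest to Iqcg, Nme7 and Otog (0.081, 0.082 and 0.086), Enpep to Cacna1i, Pik3r5 and Mapkbp1 (0.056, 0.074 and 0.074), Anpep to Chat, Chst13 and Gabrb2 (0.21, 0.24 and 0.24) and Hsd11b2 to Oas2, Smyd3 and Il6r (0.09, 0.097 and 0.102). These are the closest of 12298 named genes, by 6 arrays each, and nothing of shared function or control is read from them.

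**Figure D4:**
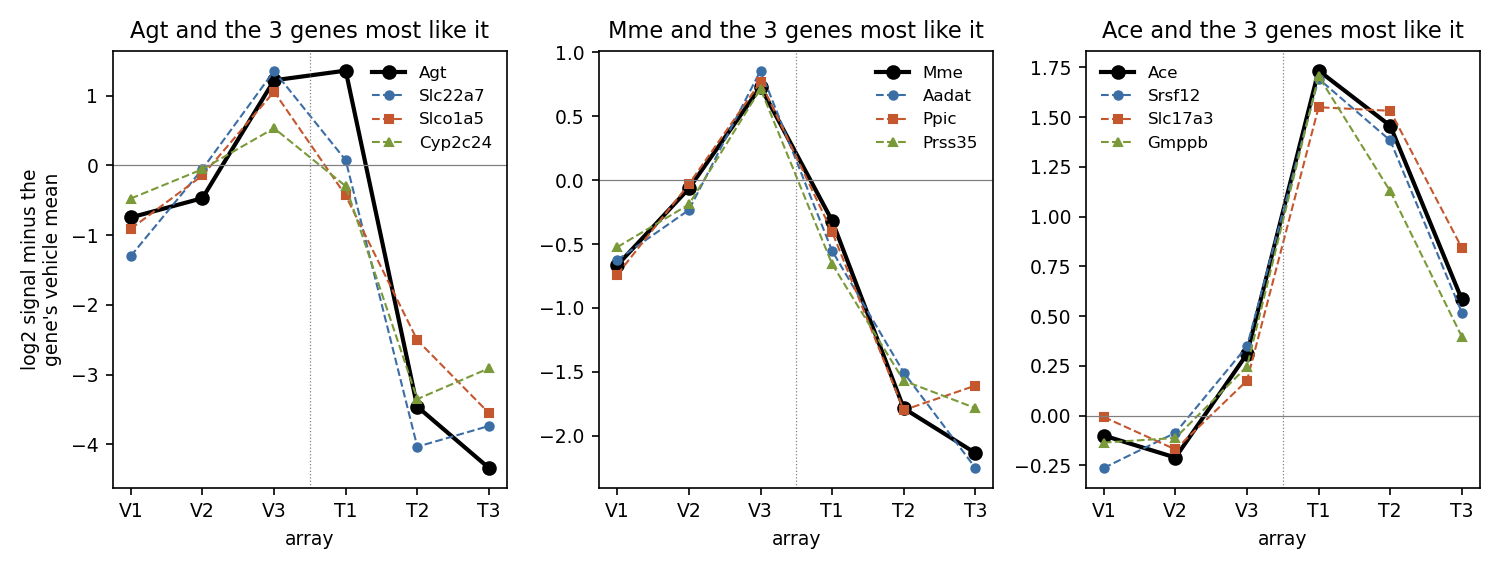
Agt, Mme and Ace (black) with the 3 genes closest in profile (dashed), as log2 signal minus the gene's vehicle mean on each array; V and T stand for vehicle and TBBC with the replicate number, and lines only join the points of a gene. The genes near Agt and Mme are highest on V3 and low on T2 and T3, and those near Ace lie above their vehicle values on T1, T2 and T3.

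Of 56 further genes of the pathway, grouped by role, 47 were measured and none passed (limma; 12 had an unadjusted p under 0.05, 20.0% of all transcripts). Their groups did not overlap in 12 cases, 3 higher and 9 lower, beside 28.3% of all transcripts (13.1% higher, 15.2% lower), and nothing particular to the pathway is read from these counts. Their median log2 fold change was -0.11, beside -0.02 over all transcripts. Of the 9 not measured, 4 had no named probe and 5, including the type 2 receptor gene Agtr2, the chymase Cma1 and the renin-release genes Nos1 and Ptgs2, failed the filter on dim probes.

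Among other peptidases that cut angiotensin or kinin fragments, 14 were measured, with a median of -0.21 and groups apart in 6, 5 lower and 1 higher (15.2% and 13.1% of all transcripts). Mep1a, the alpha subunit of the brush border metalloprotease meprin, stood at 3.58, 4.15 and 3.94 in vehicle rats and at 3.12, 3.04 and 2.99 in TBBC rats. All TBBC values lay below all vehicle values, and the log2 fold change was -0.84 ± 0.16 (SE, limma adjusted p = 0.0799). Xpnpep2, a membrane aminopeptidase that cleaves bradykinin, was at 1.48 ± 0.05 in vehicle and 0.71 ± 0.27 in TBBC rats (SD, n = 3; limma adjusted p = 0.0873), also without overlap. Both passed with normexp background correction, at adjusted p = 0.0355 and 0.0495, and with a trended robust eBayes, at 0.0392 and 0.0472 (limma), settings that called 761 and 1087 transcripts where the fit used here called 175. Over all 21 alternatives their adjusted p reached 0.286 and 0.326, both with slide as a fixed term (limma). Mep1b, the beta subunit of meprin, the soluble peptidase Prep and the peptidase Prcp are added here after their values were seen. Mep1b stood at 2.98, 3.47 and 4.58 in vehicle rats and at 2.63, -0.58 and 0.77 in TBBC rats (log2 fold change -2.74 ± 0.84 SE, limma adjusted p = 0.158). For Mep1b the log2 fold change was -1.05 on the shared slide. Prep stood at 3.01, 3.21 and 4.21 and at 3.05, 2.68 and 2.41, the order of rats seen in Agt and Mme. Its log2 fold change was -0.77 (limma adjusted p = 0.284), and -0.40 without vehicle 3 and -0.43 on the shared slide. Prcp was the 1 gene of this list higher without overlap. It stood at -0.15, -0.38 and 0.38 in vehicle rats and at 0.72, 0.47 and 0.97 in TBBC rats. The log2 fold change of Prcp was 0.77 ± 0.23 (SE, limma adjusted p = 0.154).

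In the kallikrein-kinin list 5 of 5 genes were measured, with a median of -0.07. Kng1 and Kng2, which encode kininogens, had the highest log2 fold changes of the pathway genes, 2.81 ± 1.14 and 2.62 ± 1.09 (SE), without passing (limma adjusted p = 0.243 and 0.252). Kng1 stood at -2.42, -1.53 and -0.54 in vehicle rats and at 1.5, 3.49 and -1.04 in TBBC rats, so TBBC 3 lay within the vehicle range. Kng2 stood at -1.87, -0.98 and -0.25 and at 1.72, 3.72 and -0.68, the same order of rats. Without TBBC 2 the log2 fold changes of Kng1 and Kng2 were 1.73 and 1.55, and without TBBC 3 they were 3.99 and 3.75. The kininogen genes are close copies, and signal shared between their probes was not tested.

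Receptors and their partners numbered 5 measured, with a median of -0.32. All 5 had lower means, as did 17619 of 32956 transcripts. Atp6ap2, the prorenin receptor and a part of the proton pump, was at 2.62 ± 0.05 in vehicle and 2.30 ± 0.13 in TBBC rats (SD, n = 3; limma adjusted p = 0.189), with no overlap. Mas1, a receptor linked to angiotensin fragments, was at -4.78 ± 0.43 and -5.38 ± 0.31 (adjusted p = 0.272, limma). On the shared slide their log2 fold changes were -0.20 and -0.25, against -0.32 and -0.60 over all arrays. That of Mas1 was -0.38 without vehicle 1 and -0.12 with normexp background correction. Cathepsin D (Ctsd), which can cut angiotensinogen, was at 6.73 ± 0.13 and 7.38 ± 0.65 (SD, n = 3; adjusted p = 0.317, limma) and was the 1 enzyme measured of 3 on its list. Its log2 fold change of 0.65 depended on TBBC 2: it was 0.30 without that rat and 0.072 on the shared slide.

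In the mineralocorticoid and glucocorticoid arm 9 genes were measured, with a median of -0.25 and groups apart in 4, 3 lower and 1 higher (15.2% and 13.1% of all transcripts). Hsd11b1, which regenerates corticosterone, stood at 6.01, 6.18 and 6.14 in vehicle rats and at 5.75, 5.62 and 5.09 in TBBC rats, without overlap (log2 fold change -0.62 ± 0.19 SE, limma adjusted p = 0.157). Scnn1a, the alpha subunit of the epithelial sodium channel, was at 0.22 ± 0.17 and 0.78 ± 0.29 (SD, n = 3; limma adjusted p = 0.166), the 1 gene of this list higher without overlap. On the shared slide Hsd11b1 and Scnn1a had log2 fold changes of -0.36 and 0.23. Renin release regulators (6 measured, median -0.13) were represented by the adenylyl cyclases Adcy5, at -0.29 ± 0.19, and Adcy6, at -0.15 ± 0.11 (log2 fold change, SE). Adcy5 was at -0.12 without TBBC 3 and on the shared slide, and Adcy6 at -0.097 without vehicle 1 and -0.078 on the shared slide. For AT1 receptor signalling (7 measured, median 0.04), Gnaq, the G protein subunit the receptor couples to, was at 0.36 ± 0.12 and Rgs4, a brake on such G proteins, at -0.36 ± 0.20 (log2 fold change, SE; limma adjusted p = 0.191 and 0.362). Rgs4 was at -0.17 without vehicle 3.

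**Figure D5:**
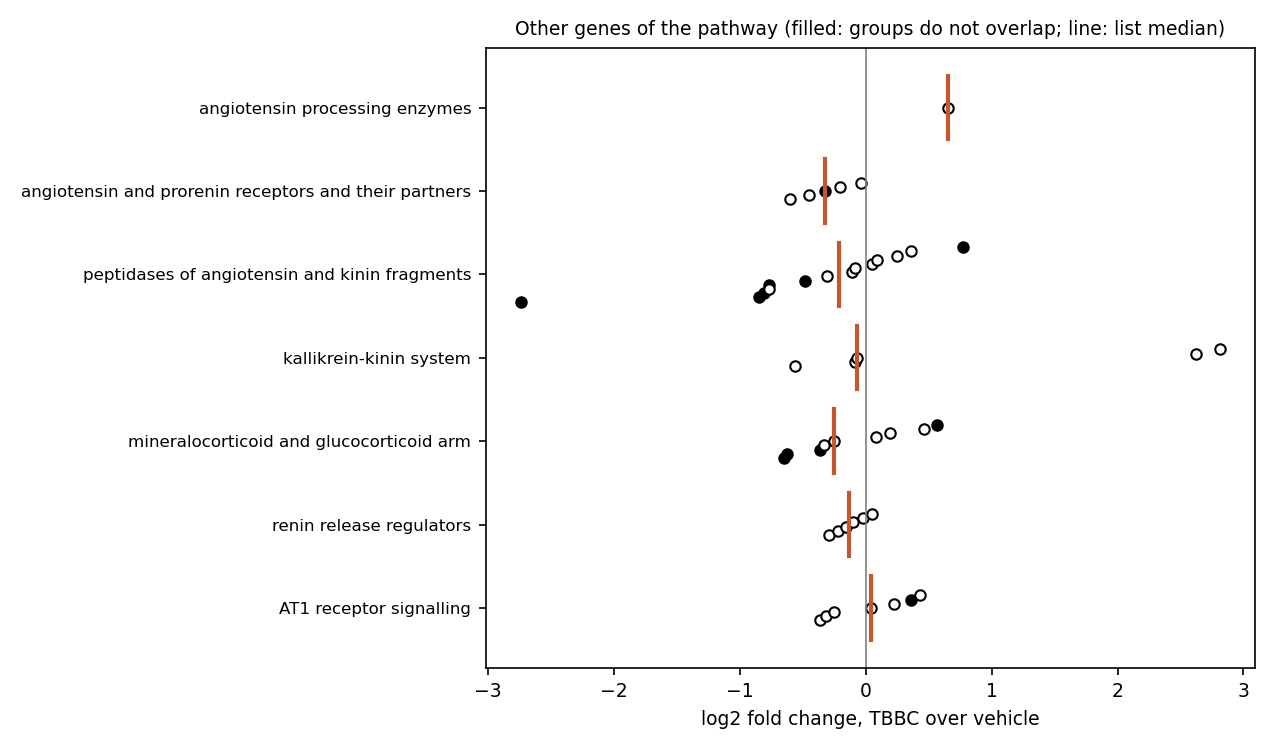
Log2 fold change of TBBC over vehicle for the 47 other pathway genes measured, 1 point per gene, by list. Filled points are genes whose groups do not overlap and the orange line is the list median; most points lie between -1 and 1, with Mep1b at -2.74 and Kng2 and Kng1 at 2.62 and 2.81.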

How the data were processed

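Renal cortex RNA was hybridised to 1-colour (Cy3) Agilent arrays, 1 per rat. The authors deposited spot intensity values made with Feature Extraction 10.7.1.1, which the headers of the files name, background-subtracted and detrended within each array. The authors' deposited value table held the same arrays as an unlogged ratio to a divisor that lay 0.116% to 0.232% from the 75th percentile computed here, with no centring of genes. Its column medians were 0.111, 0.112 and 0.113 in the vehicle group and 0.113, 0.107 and 0.114 in the TBBC group. No direction applies, as each column is 1 array.

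After 1439 control spots were left out, 61537 probes remained, and RefSeq accessions (table of assembly GRCr8) named 28206 of them. Signals were scaled to the array's 75th percentile and put on the log2 scale. Flagged outlier spots (0 to 9 per array) were left out, and saturation affected none. Probes were kept when well above background on every array of at least 1 group, and the brightest tested probe stood for a gene. Groups were compared with limma 3.58.1 in R 4.3.3 (lmFit, eBayes, two-sided, Benjamini-Hochberg over 32956 transcripts). A summed marker level adds linear signals over the 75th percentile. Alternatives were other scalings, normexp on the median signal (offset 50), the deposited table, other filters and probe rules, slide (fixed, random, or the shared slide alone), array weights, a trended robust eBayes, a replicate block and each array left out. The procedure was tested on simulated data.

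The 7 genes and the lists were chosen with earlier results of these data known. The genes named are the 7, per pathway list those past the threshold and otherwise the 2 with the smallest p, per marker list the 2 brightest, and the 3 closest profiles. Agtr1b is an addition made after its values were seen. Some genes of the lists are not reported here. The replicates are biological, per the series' design text. Replicate numbers were not taken as pairs, since deviations of same-numbered arrays correlated at -0.09, 0.03 and -0.07 across transcripts. The number of arrays limits the precision.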

Additional observations from a re-analysis of the deposited data

How the results depend on the processing

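None of the 7 genes passed in any of 21 alternatives (limma). On all arrays 3 of the 7 had an unadjusted limma p under 0.05, as did 20.0% of all transcripts. Ace (1.02 to 1.73), Agtr1a, Mme and Anpep kept their direction in all 21 alternatives. The lowest adjusted p of Ace was 0.0501, without TBBC 3. Agt turned to 1.36, Enpep to 0.27, Hsd11b2 to -0.056 and, of the paralog, Agtr1b to 0.14 with slide as a fixed term and on the shared slide alone, where the difference rests on TBBC 1. With 1 array left out, the log2 fold change ran from -3.90 to -1.05 for Agt, -0.28 to 0.083 for Enpep (0.031 without vehicle 3) and -0.18 to 0.26 for Hsd11b2 (-0.093 without vehicle 3). Calls over all transcripts, 175 with all arrays, numbered 761 with normexp, 52 without a filter on dim probes, 333 with every probe on its own, 1087 with trend and robust, 48 with slide as a fixed term (43 higher, 5 lower), 307 on the shared slide (263 higher, 44 lower) and 0 with the replicate block (limma; 5366 at an unadjusted p under 0.05). They were 10, 6 and 14 without vehicle 1, 2 and 3 and 254, 58 and 274 without TBBC 1, 2 and 3, and the cause was not tested. The block changed no call of the 7 genes. Of the pathway genes 2, Mep1a and Xpnpep2, passed with normexp and with trend and robust. With 3 arrays a group, the intervals above limit what can be seen.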
